A study of Mus musculus with 14 samples.

Results

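The 10 genes of the Atf4 amino acid stress response studied here were followed across mouse embryos from in vitro fertilisation (IVF) or somatic cell nuclear transfer (SCNT) and across the cumulus cells that supplied the nuclei. The genes are Atf4, Ddit3, Asns, Trib3, Chac1, Slc38a2, Slc7a11, Ddit4, Psat1 and Sesn2. They were taken by symbol from the deposited expression table, and all 10 were found among its 22491 gene symbols. The libraries were 14 in 7 groups of 2. The donor group was cumulus cells, the somatic cells that surround the oocyte, with about 1000 cells in each library. IVF 1-cell (pools of 32 and 31) and IVF 2-cell embryos (25 and 25) came from C57BL/6J oocytes and CAST/EiJ sperm. SCNT 1-cell (36 and 36) and SCNT 2-cell embryos (40 and 40) were B6D2F1 oocytes that received a cumulus cell nucleus. The strain labels give the donor cells as (C57BL/6J x CAST/EiJ) F1, whereas the protocol text names BDF1 females as their source. In Kdm4d embryos, SCNT embryos of the 2-cell stage carried an excess of Kdm4d, an enzyme that removes methyl groups from histone H3 at lysine 9, and in mutant embryos an excess of a mutated Kdm4d (25 embryos in each library). The sources used here do not give the mutation, the means of overexpression or the animals' ages. Oocyte donors were superovulated in all groups, with 7.5 IU of PMSG and 7.5 IU of hCG, and the oocyte strain differed between every IVF and SCNT group, so that strain and method cannot be told apart.

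Atf4 is a transcription factor whose mRNA is translated more when the initiation factor eIF2 is phosphorylated on its alpha subunit, as happens when amino acids run short, when unfolded proteins build up in the endoplasmic reticulum, or under oxidative or viral stress. It then switches on genes for amino acid synthesis, uptake and tRNA charging, together with genes that feed back on the response or restrain growth. Because this control acts on translation, the mRNA level of Atf4 itself does not measure Atf4 activity, and readouts are usually taken from its targets. In mouse embryos the major wave of transcription from the embryo's own genome begins at the 2-cell stage, so a mRNA present at the 1-cell stage is mostly carried over from the oocyte.

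Atf4 binds with partners to a composite sequence, the CEBP-ATF response element, and the promoters of the group are shown for the members in which its core was found. The core was searched as TGATGNAA on both strands in the 250 bases upstream of RefSeq transcription starts (GRCm38.p6, a later build than that of the expression table). All 10 genes had an entry, with 11 windows in all because Psat1 had 2 starts. A match occurred in windows of 3 genes, against 1134 of 32851 windows (3.45%) over the whole table. These 3 are printed 5′ to 3′ along the gene's strand, with the matched bases in capitals.
Asns, minus strand, chr6:7693210-7693268: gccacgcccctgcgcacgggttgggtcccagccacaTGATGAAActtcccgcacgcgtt
Chac1, plus strand, chr2:119351013-119351092: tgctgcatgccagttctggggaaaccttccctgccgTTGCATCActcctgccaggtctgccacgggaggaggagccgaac
Slc7a11, minus strand, chr3:50443636-50443715: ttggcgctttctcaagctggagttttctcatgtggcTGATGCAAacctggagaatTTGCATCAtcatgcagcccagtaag
In Asns the match ended 16 bases before the start, in Chac1 186 bases before it on the opposite strand, and Slc7a11 held 2 facing matches that ended 59 and 40 bases before it. A match is a description of the letters only, and the absence of one in the other 7 genes says nothing about Atf4 there.

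In the coordinates of the expression table (mm9), Atf4 lies on chromosome 15 from 80085614 to 80087971 and Slc38a2 on the same chromosome from 96517823 to 96530129. Ddit3 lies on chromosome 10 from 126727849 to 126733344 and Ddit4 from 59412423 to 59414518. Trib3 spans 152163161 to 152169796 and Chac1 119176978 to 119180062 on chromosome 2. Asns lies on chromosome 6 from 7625171 to 7643182, Slc7a11 on chromosome 3 from 50168858 to 50247535, Sesn2 on chromosome 4 from 132048722 to 132066371 and Psat1 on chromosome 19 from 15979613 to 15999549. Checked in stretches of 50 bases, the transcripts of 7 members shared none with any other gene. Ddit3 shared 1.11% with the opposite strand of its neighbour Mars, Psat1 0.739% with Gm12611, and Slc7a11 at most 1.37% with other genes.

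Levels are FPKM, fragment numbers scaled to transcript length and to the size of the library, so they can be compared between genes. Sums of FPKM ran from 182987 to 345438 per library and were lowest in the SCNT 2-cell libraries. Relative depth ran from 0.415 (Kdm4d library 2) to 1 (IVF 1-cell library 1), and the 4 Kdm4d and mutant libraries were the shallowest. Replicates correlated with a Spearman's rho of 0.932 (mutant) to 0.988 (IVF 1-cell) across genes. Kdm4d itself stood below 1 FPKM in every library without overexpression, at 8879 and 2255 FPKM in Kdm4d embryos and at 723 and 284 FPKM in mutant embryos. For 6 members the values were whole multiples of a smallest step, which gives the fewest fragments that fit them: at least 8 in every library for Asns and Slc38a2, 2 for Trib3, 4 for Chac1, 31 for Ddit4 and 12 for Sesn2. Intervals from these counts cover counting error only. Differences below are on the log2(FPKM + 1) scale, which understates changes of genes near 0, with SE and Benjamini-Hochberg adjusted p from limma across 13452 genes, and a gene is called where that p is below 0.05. Nothing in the labels says that replicates were separate experiments, so these p-values measure only the spread between libraries. FPKM are relative to the RNA of each library, and fewer cells of a kind cannot be told apart from less RNA per cell.

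**Figure D1:**
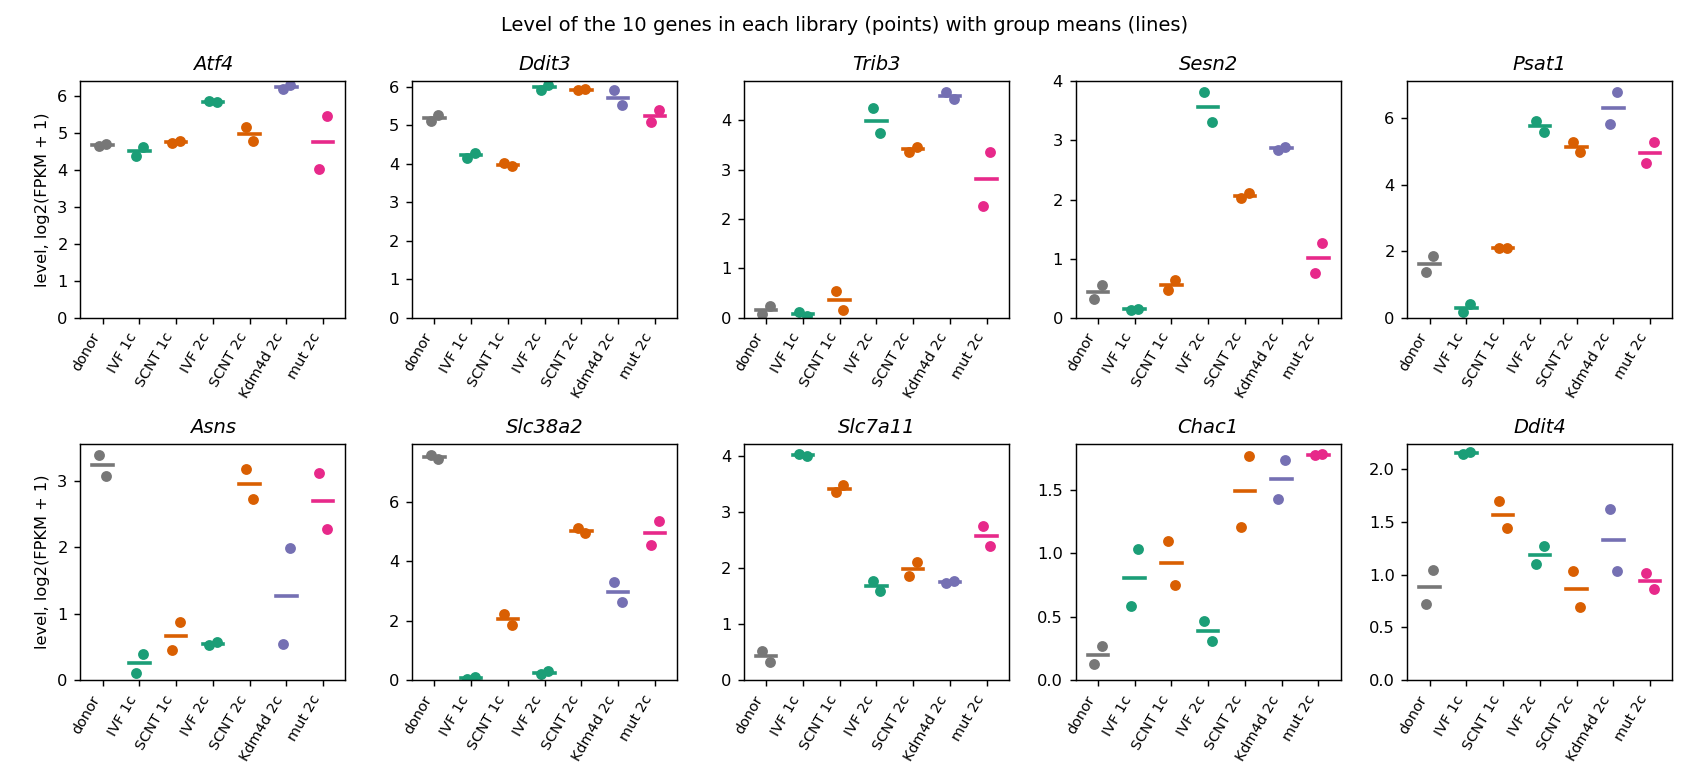
Level of each of the 10 genes as log2(FPKM + 1) on the vertical axis, with a panel for each gene and the 7 groups along the horizontal axis (1c, 1-cell; 2c, 2-cell; mut, mutant Kdm4d). Points are libraries and lines are group means; Asns and Slc38a2 are high in donor, SCNT 2-cell and mutant libraries and low in all IVF libraries, whereas Trib3 and Psat1 are higher in every 2-cell group than in any 1-cell or donor library.

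Among the transcription factors, Atf4 was present at 15.4 FPKM or more in every library. It stood at 24.2 and 24.9 FPKM in donor cells, 19.8 and 23.7 in IVF 1-cell and 25.7 and 26.6 in SCNT 1-cell embryos. At the 2-cell stage it stood at 57.1 and 56.0 in IVF, 34.7 and 26.6 in SCNT, 71.7 and 77.7 in Kdm4d and 15.4 and 43.4 FPKM in mutant embryos. The Kdm4d libraries were thus the highest and the IVF 2-cell libraries next, with no overlap between these groups or with any other, while the SCNT 2-cell libraries overlapped the mutant libraries. Ddit3, which encodes the stress transcription factor CHOP, stood at 34.0 and 37.3 FPKM in donor cells, 16.8 and 18.5 in IVF 1-cell and 15.2 and 14.4 in SCNT 1-cell embryos. It stood at 59.7 and 65.2 in IVF 2-cell, 59.07 and 60.98 in SCNT 2-cell, 59.3 and 45.2 in Kdm4d and 32.9 and 41.6 FPKM in mutant embryos. The IVF and SCNT 2-cell libraries overlapped, and the mutant libraries lay below them.

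The genes that feed back on the response or restrain growth were at most 0.554 FPKM at the 1-cell stage, except Ddit4. Trib3, a pseudokinase that binds and inhibits Atf4, stood at 0.0506 and 0.187 FPKM in donor cells, 0.0797 and 0.0214 in IVF 1-cell and 0.454 and 0.119 in SCNT 1-cell embryos. It then stood at 18.0 and 12.4 in IVF 2-cell, 9.32 and 9.96 in SCNT 2-cell, 22.8 and 20.7 in Kdm4d and 3.83 and 9.23 FPKM in mutant embryos, with no overlap between any of these 4 groups. Sesn2, a leucine-binding restraint on the growth kinase complex mTORC1, stood at 0.242 and 0.461 FPKM in donor cells, 0.0901 and 0.113 in IVF 1-cell and 0.381 and 0.554 in SCNT 1-cell embryos. Its 2-cell levels were 13.1 and 8.96 in IVF, 3.06 and 3.32 in SCNT, 6.11 and 6.45 in Kdm4d and 0.698 and 1.39 FPKM in mutant embryos. The order of Sesn2 was thus IVF, Kdm4d, SCNT and mutant, with no overlap between neighbours. Ddit4, another restraint on mTORC1, was highest in IVF 1-cell embryos at 3.40 and 3.47 FPKM and next in SCNT 1-cell embryos at 2.23 and 1.71. Its other libraries ran from 0.613 to 2.08 FPKM, and neighbours in the order of the other 6 groups overlapped, except IVF 2-cell and mutant embryos.

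The biosynthetic enzymes Asns and Psat1 were distributed differently. Asns, which makes asparagine from aspartate, stood at 9.49 and 7.43 FPKM in donor cells, 0.0854 and 0.310 in IVF 1-cell and 0.376 and 0.834 in SCNT 1-cell embryos. It stood at 0.452 and 0.484 in IVF 2-cell, 8.02 and 5.62 in SCNT 2-cell, 0.462 and 2.96 in Kdm4d and 7.64 and 3.84 FPKM in mutant embryos. SCNT 2-cell embryos were thus at 80.6% of the donor mean and IVF 2-cell embryos at 5.53%, and Kdm4d library 1, at 22 fragments, lay within the IVF 2-cell range while library 2 did not. Psat1, an enzyme of serine synthesis, stood at 1.62 and 2.62 FPKM in donor cells, 0.122 and 0.342 in IVF 1-cell and 3.30 and 3.29 in SCNT 1-cell embryos. At the 2-cell stage it stood at 59.8 and 47.3 in IVF, 37.7 and 30.9 in SCNT, 56.2 and 109.9 in Kdm4d and 24.3 and 37.9 FPKM in mutant embryos. All 2-cell libraries of Psat1 were above all 1-cell and donor libraries.

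Of the transporters, Slc38a2, which carries neutral amino acids such as glutamine into cells with sodium, had the widest range of the 10 genes. It stood at 190.7 and 171.7 FPKM in donor cells, 0.0333 and 0.0761 in IVF 1-cell (8 and 17 fragments) and 3.73 and 2.66 in SCNT 1-cell embryos. Its 2-cell levels were 0.155 and 0.241 in IVF (29 and 46 fragments), 33.6 and 29.9 in SCNT, 8.84 and 5.21 in Kdm4d and 22.6 and 39.9 FPKM in mutant embryos. The SCNT 2-cell and mutant libraries overlapped, and no other neighbours in the order did. Slc7a11, which exchanges cystine for glutamate and so feeds glutathione synthesis, was lowest in donor cells at 0.439 and 0.261 FPKM and highest in IVF 1-cell embryos at 15.3 and 14.9. It stood at 9.14 and 10.1 in SCNT 1-cell, 2.42 and 2.00 in IVF 2-cell, 2.63 and 3.32 in SCNT 2-cell, 2.31 and 2.42 in Kdm4d and 5.73 and 4.23 FPKM in mutant embryos. Slc7a11 and Ddit4 were the members whose highest group was a 1-cell group. Chac1, an enzyme that degrades glutathione, was low throughout, at 0.0913 and 0.207 FPKM in donor cells, 0.498 and 1.04 in IVF 1-cell and 1.15 and 0.687 in SCNT 1-cell embryos. It stood at 0.380 and 0.238 in IVF 2-cell (22 and 14 fragments), 1.31 and 2.41 in SCNT 2-cell, 1.70 and 2.34 in Kdm4d and 2.42 and 2.44 FPKM in mutant embryos. All 6 SCNT-derived 2-cell libraries lay above both IVF 2-cell libraries.

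How the members changed from the 1-cell to the 2-cell stage was compared in each kind of embryo. In IVF embryos Atf4, Ddit3, Trib3, Psat1 and Sesn2 rose and Slc7a11 and Ddit4 fell, whereas 30.3% of all genes tested were called higher and 37.2% lower (4081 and 5004 genes, and 4801 and 3618 with equal sums). The rise was 1.34 (SE 0.33, adjusted p = 0.0033) for Atf4 and 5.47 (SE 0.30, adjusted p = 2.2e-08) for Psat1. The fall was 2.33 for Slc7a11, a log2 difference of -2.33 (SE 0.18, adjusted p = 3.2e-07). The median over the 10 genes was 0.82, against -0.06 over all genes. Asns (0.30, SE 0.40) and Slc38a2 (0.18, SE 0.27) did not pass the test in IVF embryos, with adjusted p of 0.55 and 0.58. In SCNT embryos Ddit3, Asns, Trib3, Chac1, Slc38a2, Psat1 and Sesn2 rose and Slc7a11 and Ddit4 fell, beside 35.4% of all genes higher and 31.5% lower (4757 and 4231 genes, and 6950 and 2303 with equal sums). Asns changed by 2.28 (SE 0.40, adjusted p = 0.00034) and Slc38a2 by 2.97 (SE 0.27, adjusted p = 1.7e-06), while Atf4 differed by 0.21 (SE 0.33, adjusted p = 0.60). The median over the 10 genes was 1.73 in SCNT embryos, against 0.06 over all genes. The rise of Chac1 (0.56, SE 0.23, adjusted p = 0.044) did not pass without SCNT 1-cell library 2 (adjusted p = 0.26) or SCNT 2-cell library 2 (adjusted p = 0.347), nor after quantile normalization (0.626). The fall of Ddit4 (-0.70, SE 0.22, adjusted p = 0.014) did not pass without SCNT 1-cell library 1 (0.1) or SCNT 2-cell library 2 (0.11), nor with libraries scaled to equal sums (0.309).

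**Figure D2:**
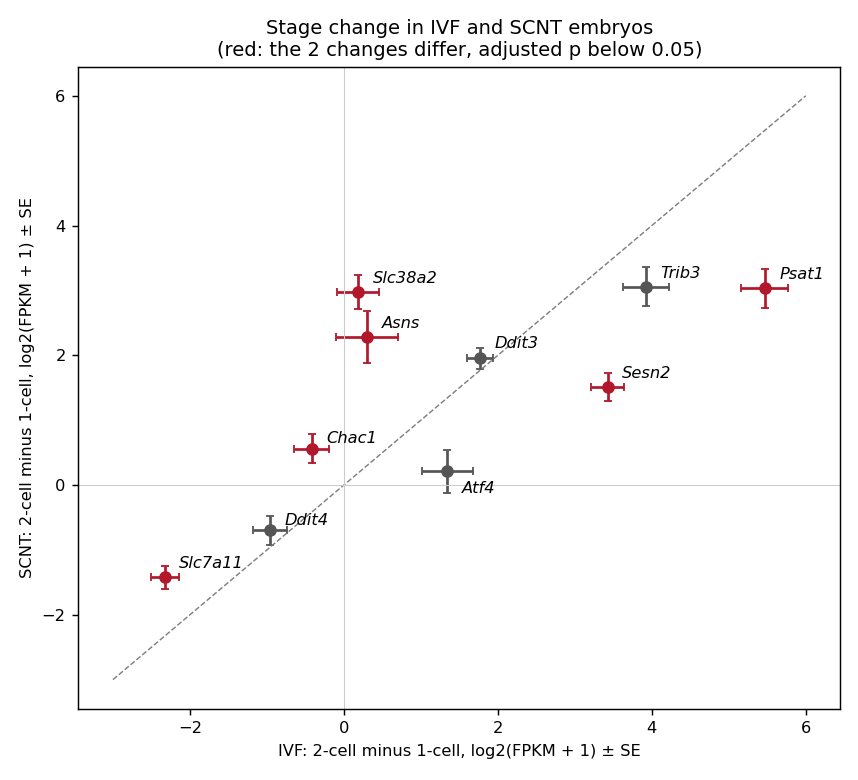
Change from the 1-cell to the 2-cell stage of each gene in IVF embryos (horizontal axis) and in SCNT embryos (vertical axis), as differences of log2(FPKM + 1) with bars of 1 SE and a dashed line of equal change. Slc38a2, Asns, Chac1 and Slc7a11 lie above the line and Psat1 and Sesn2 below it among the genes whose 2 changes differ by the test (red).

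The difference between the 2 stage changes was itself tested. It was higher in SCNT than in IVF embryos for 4 members, Slc38a2 (2.79, SE 0.38, adjusted p = 0.00038), Asns (1.98, SE 0.57, adjusted p = 0.022), Chac1 (0.98, SE 0.32, adjusted p = 0.038) and Slc7a11 (0.90, SE 0.26, adjusted p = 0.021). It was lower for Psat1 (-2.43, SE 0.43, adjusted p = 0.0017) and Sesn2 (-1.91, SE 0.30, adjusted p = 0.00094). Slc7a11 fell in both kinds of embryo, by a smaller amount in SCNT embryos. Over all genes 16.4% were called higher and 12.5% lower (2200 and 1684 genes, and 3534 and 1190 with equal sums). Atf4 (-1.13, SE 0.47, adjusted p = 0.093), Trib3 (-0.87, SE 0.42, adjusted p = 0.15), Ddit3 (0.18, SE 0.23, adjusted p = 0.60) and Ddit4 (0.26, SE 0.31, adjusted p = 0.56) did not pass. With single libraries left out, 3 to 5 members were called, and 3 without IVF 1-cell library 2 or without IVF 2-cell library 2. Among these fits Asns lost its call in 5, with adjusted p of 0.0584 to 0.0829, Chac1 in 5 (0.0697 to 0.154) and Slc7a11 in 6 (0.051 to 0.0824), while Slc38a2, Psat1 and Sesn2 remained called. After quantile normalization the difference was 0.44 for Slc7a11 (adjusted p = 0.295) and 0.84 for Chac1 (0.0863), and neither passed.

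At the 1-cell stage SCNT and IVF embryos differed in Slc38a2 (1.98, SE 0.27, adjusted p = 0.0032) and Psat1 (1.81, SE 0.30, adjusted p = 0.011), both higher in SCNT embryos, and none of the 10 genes was called lower. Over all genes 1.24% were called higher and 0.885% lower (167 and 119 genes, and 103 and 41 with equal sums). Slc38a2 was 58.4 times higher by the ratio of means and Psat1 14.2 times, and the libraries did not overlap for either, as was so for 66.2% of all genes. Slc38a2 lost its call without SCNT 1-cell library 1 (adjusted p = 0.0567) and Psat1 without any of the 4 libraries (0.0734 to 0.135). Slc7a11 (-0.60, SE 0.18, adjusted p = 0.12), Ddit4 (-0.58, SE 0.22, adjusted p = 0.22) and Sesn2 (0.41, SE 0.21, adjusted p = 0.41) did not pass the test, nor did Atf4, Ddit3, Asns, Trib3 and Chac1, with adjusted p of 0.57 to 0.89. In SCNT 1-cell embryos Slc38a2 was at 1.76% of its donor mean, and Psat1 at 155.9%, above the donor cells. The summed level of 27 cumulus and granulosa markers was 72.5 to 93.7 FPKM in SCNT 1-cell and 18.9 to 20.8 in IVF 1-cell embryos, against 20690 to 27110 in donor cells, so that the SCNT sum was 0.348% of that in donor cells. Of the 25 markers tested, 6 were called higher in SCNT 1-cell embryos and 0 lower, and Cyp11a1, which begins steroid synthesis, was listed at 0 in both IVF 1-cell libraries and at 2.45 and 2.87 FPKM in the SCNT libraries. The part of this difference in the levels of Slc38a2 and Psat1 was not tested.

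Donor cells, as the source of the nuclei, were set beside embryos. Against IVF 1-cell embryos, donor cells were higher in Ddit3, Asns, Slc38a2 and Psat1 and lower in Chac1, Slc7a11 and Ddit4, beside 42.4% of all genes higher and 35.5% lower. The difference was 7.43 (SE 0.27, adjusted p = 1.6e-10) for Slc38a2 and -3.58 (SE 0.18, adjusted p = 2.8e-09) for Slc7a11. The call of Chac1 (-0.61, SE 0.23, adjusted p = 0.026) was lost without either donor library (0.125 and 0.057), without IVF 1-cell library 2 (0.223) and with equal sums (0.0963). Against SCNT 2-cell embryos, donor cells were higher in Slc38a2 (2.48, SE 0.27, adjusted p = 4.3e-06) and lower in Ddit3, Trib3, Chac1, Slc7a11, Psat1 and Sesn2, beside 34.1% of all genes higher and 38.9% lower (4593 and 5233 genes, and 3653 and 6543 with equal sums). Asns differed by 0.28 (SE 0.40, adjusted p = 0.54), with overlapping libraries. By the ratio of means Slc38a2 was 5.71 times higher in donor cells than in SCNT 2-cell embryos.

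At the 2-cell stage 3 of the 10 genes were called higher and 2 lower in SCNT than in IVF embryos, near the shares over all genes given below. Slc38a2 was higher in SCNT embryos by 4.77 (SE 0.27, adjusted p = 4.1e-07; 160.4 times by the ratio of means), Asns by 2.40 (SE 0.40, adjusted p = 0.00055; 14.6 times) and Chac1 by 1.10 (SE 0.23, adjusted p = 0.002; 6.02 times). Sesn2 was lower, at -1.50 (SE 0.21, adjusted p = 0.00018), which is 0.289 of the IVF mean. Atf4 was lower as well, at -0.87 (SE 0.33, adjusted p = 0.049). Over all genes 30.2% were called higher and 16.5% lower, and the median was -0.19 over the 10 genes and 0.23 over all genes. The SCNT and IVF libraries did not overlap for Trib3 (-0.59, SE 0.30, adjusted p = 0.13), Psat1 (-0.63, SE 0.30, adjusted p = 0.11), Ddit4 (-0.32, SE 0.22, adjusted p = 0.25) or Slc7a11 (0.31, SE 0.18, adjusted p = 0.19), but none of these passed the test, and the libraries of 78.8% of all genes did not overlap. Ddit3 differed by -0.06 (SE 0.17, adjusted p = 0.81), with overlapping libraries.

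The call of Atf4 was lost without each of the 4 libraries, with adjusted p of 0.15 and 0.137 without IVF 2-cell library 1 or 2 and 0.0753 and 0.233 without SCNT 2-cell library 1 or 2. It was lost as well after quantile normalization (0.233) and with equal sums (0.262). Slc38a2, Asns, Chac1 and Sesn2 remained called in each of these fits. Quantile normalization moved the median over all genes from 0.225 to 0 (2772 genes higher and 2703 lower, against 4066 and 2225 as deposited), and equal sums moved it to 0.495 (6311 and 1505). No member called here changed its direction under either.

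**Figure D3:**
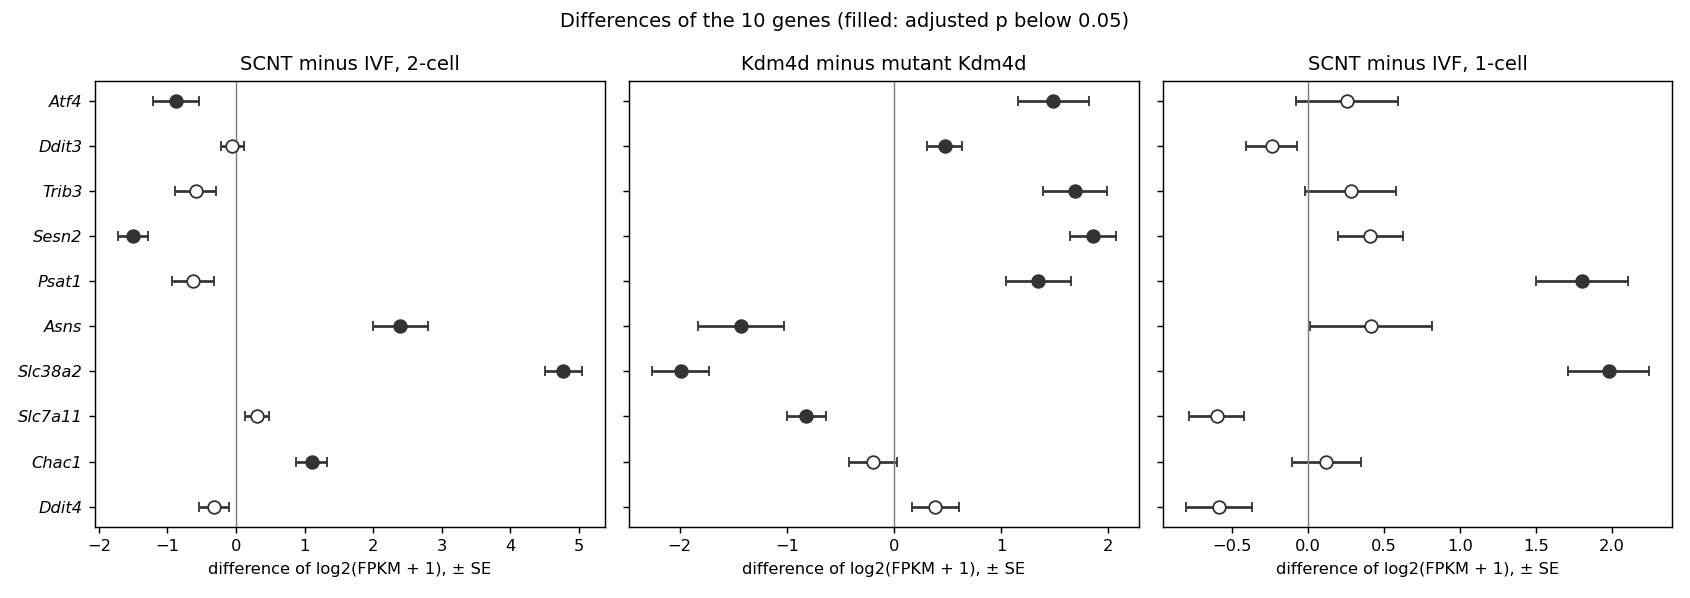
Difference of each of the 10 genes between groups on the log2(FPKM + 1) scale with bars of 1 SE, for SCNT against IVF 2-cell embryos (left), Kdm4d against mutant embryos (middle) and SCNT against IVF 1-cell embryos (right); scales differ between panels. Filled points passed the test, and Atf4, Sesn2, Asns and Slc38a2 are filled on opposite sides of 0 in the left and middle panels.

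Kdm4d embryos were compared with SCNT 2-cell embryos, with the mutant and with IVF 2-cell embryos. These comparisons share libraries with each other, and with that of SCNT and IVF embryos, except that Kdm4d against mutant shares none with the latter. Against the mutant, Kdm4d embryos were higher in Sesn2 (1.85, SE 0.21, adjusted p = 8.2e-05; 6.02 times by the ratio of means), Trib3 (1.69, SE 0.30, adjusted p = 0.001; 3.33 times), Atf4 (1.49, SE 0.33, adjusted p = 0.0041), Psat1 (1.35, SE 0.30, adjusted p = 0.0042) and Ddit3 (0.47, SE 0.17, adjusted p = 0.037). They were lower in Slc38a2 (-1.99, SE 0.27, adjusted p = 0.00019), Asns (-1.43, SE 0.40, adjusted p = 0.014) and Slc7a11 (-0.82, SE 0.18, adjusted p = 0.0038). Over all genes 21.3% were called higher and 22.3% lower (2871 and 3003 genes, and 2108 and 3938 with equal sums), and the median was 0.43 over the 10 genes and -0.09 over all genes. Chac1 (-0.19, SE 0.23, adjusted p = 0.51) and Ddit4 (0.39, SE 0.22, adjusted p = 0.18) did not pass. Asns lost its call without Kdm4d library 1 (0.115) or mutant library 1 (0.105), and its difference was then -0.71 and -1.01. Ddit3 lost its call without Kdm4d library 1 (0.187) or mutant library 1 (0.193), after quantile normalization (0.693) and with equal sums (0.357). With group weights, which let the noisier groups have their own spread, 4 of the 10 were called in place of 8, and the adjusted p was 0.0916 for Asns, 0.085 for Slc7a11, 0.0506 for Psat1 and 0.214 for Ddit3.

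Against SCNT 2-cell embryos without overexpression, Kdm4d embryos were lower in Slc38a2 (-2.07, SE 0.27, adjusted p = 0.00014; 0.221 of the SCNT mean) and Asns (-1.68, SE 0.40, adjusted p = 0.0061; 0.251 of it). They were higher in Atf4 (1.27, SE 0.33, adjusted p = 0.01), Psat1 (1.18, SE 0.30, adjusted p = 0.0089), Trib3 (1.09, SE 0.30, adjusted p = 0.013) and Sesn2 (0.80, SE 0.21, adjusted p = 0.011). Over all genes 21% were called higher and 18.4% lower. The 4 rises moved with the scaling. FPKM sums were 291619 and 310329 in Kdm4d and 187329 and 182987 in SCNT 2-cell libraries. With equal sums, which moved the median over all genes from -0.022 to -0.474 (1154 genes higher and 6018 lower, against 2819 and 2478), the rises were 0.58 for Atf4 (adjusted p = 0.216), 0.50 for Psat1 (0.214), 0.45 for Trib3 (0.289) and 0.23 for Sesn2 (0.422). After quantile normalization Sesn2 remained called and Atf4 (0.131), Psat1 (0.121) and Trib3 (0.0501) did not. The falls of Slc38a2 and Asns remained called under both scalings. Without SCNT 2-cell library 1 or 2, 3 of the 10 were called in place of 6. The fits without library 1 lost Trib3 (0.0662), Sesn2 (0.0613) and Asns (0.0542), and those without library 2 lost Trib3 (0.0507), Atf4 (0.0824) and Psat1 (0.0699). Trib3 was also lost without Kdm4d library 1 (0.0535), and Atf4 (0.0530) and Psat1 (0.0857) without Kdm4d library 2.

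**Figure D4:**
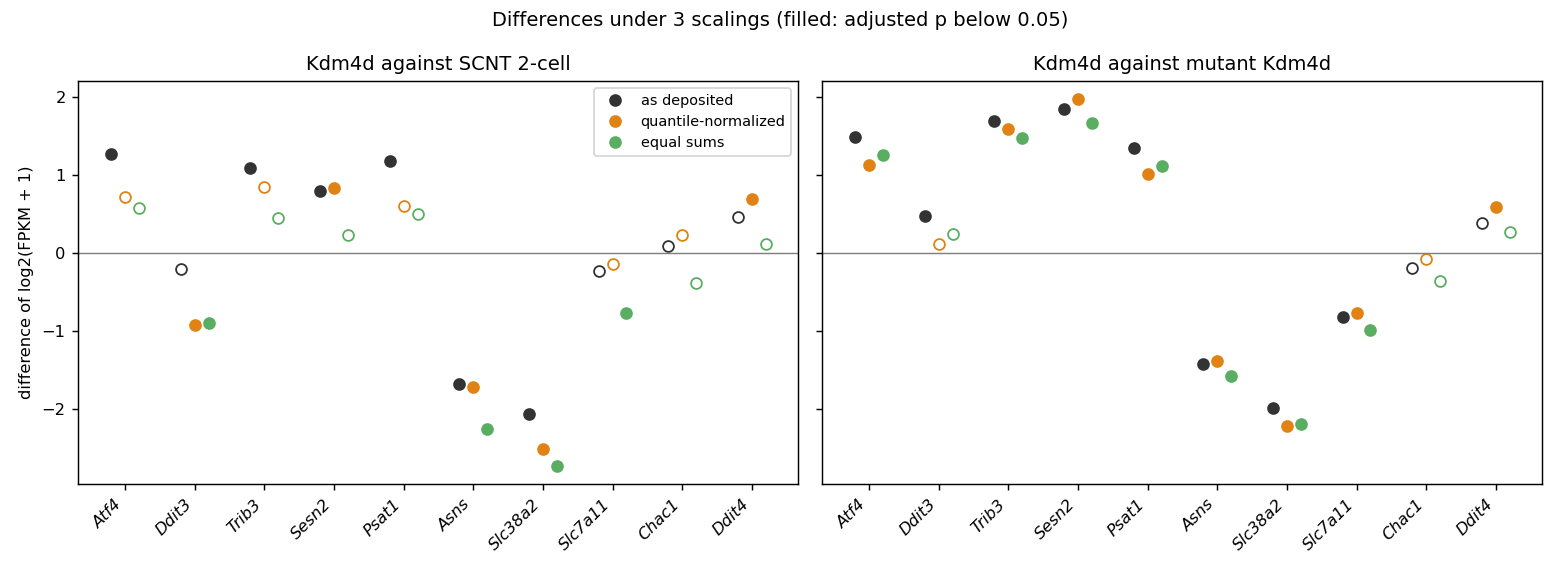
Differences of the 10 genes on the log2(FPKM + 1) scale for Kdm4d against SCNT 2-cell embryos (left) and Kdm4d against mutant embryos (right), with values as deposited, after quantile normalization and with libraries scaled to equal sums; filled points passed the test. On the left Atf4, Trib3, Sesn2 and Psat1 are open under equal sums while Asns and Slc38a2 stay filled and negative.

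Mutant embryos held Kdm4d at 723 and 284 FPKM, against 8879 and 2255 in Kdm4d embryos, so its level was not matched. Mutant embryos differed from SCNT 2-cell embryos in 3 members. Slc7a11 was higher (0.58, SE 0.18, adjusted p = 0.046) and Sesn2 (-1.06, SE 0.21, adjusted p = 0.0082) and Ddit3 (-0.68, SE 0.17, adjusted p = 0.017) were lower, beside 11.1% of all genes higher and 6.28% lower. These 1488 and 845 genes became 1318 and 1389 after quantile normalization and 642 and 3314 with equal sums, where Slc7a11 differed by 0.22 (adjusted p = 0.365). For Slc38a2 (-0.07, SE 0.27, adjusted p = 0.89) and Asns (-0.26, SE 0.40, adjusted p = 0.70) the libraries overlapped and no difference was detected. In a fit to these 4 libraries only, or with group weights, 0 of the 3 calls passed. The calls of Ddit3 and Slc7a11 were also lost without SCNT 2-cell library 1 (0.0858 and 0.243) or 2 (0.0788 and 0.0697) or mutant library 1 (0.0854 and 0.2), and that of Sesn2 without SCNT 2-cell library 1 (0.0519).

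Set against IVF 2-cell embryos, Kdm4d embryos were still higher in Slc38a2 (2.71, SE 0.27, adjusted p = 8.3e-05; 35.5 times by the ratio of means) and Chac1 (1.20, SE 0.23, adjusted p = 0.0039; 6.52 times) and lower in Sesn2 (-0.70, SE 0.21, adjusted p = 0.038). Over all genes 16.6% were called higher and 3.61% lower, but these 2233 and 486 genes became 906 and 1020 after quantile normalization and 920 and 965 with equal sums. The call of Sesn2 was lost without IVF 2-cell library 1 (0.272) or either Kdm4d library (0.0979 and 0.0783). Asns (0.71, SE 0.40, adjusted p = 0.24), Atf4 (0.39, SE 0.33, adjusted p = 0.45), Trib3 (0.51, SE 0.30, adjusted p = 0.27) and Psat1 (0.56, SE 0.30, adjusted p = 0.23) did not pass. Mutant embryos were higher than IVF 2-cell embryos in Slc38a2 (4.70, SE 0.27, adjusted p = 3.6e-07), Asns (2.14, SE 0.40, adjusted p = 0.0009), Chac1 (1.39, SE 0.23, adjusted p = 0.00034) and Slc7a11 (0.89, SE 0.18, adjusted p = 0.0015). They were lower in Sesn2 (-2.56, SE 0.21, adjusted p = 3.9e-06), Trib3 (-1.18, SE 0.30, adjusted p = 0.0057), Atf4 (-1.09, SE 0.33, adjusted p = 0.015), Ddit3 (-0.74, SE 0.17, adjusted p = 0.0028) and Psat1 (-0.79, SE 0.30, adjusted p = 0.044), beside 36.3% of all genes higher and 18.1% lower (4886 and 2429 genes, and 3311 and 3253 after quantile normalization). The fall of Atf4 was -0.38 (adjusted p = 0.0996) without mutant library 1 and also lost its call without IVF 2-cell library 1 (0.0664) or 2 (0.0602), that of Psat1 was lost without mutant library 1 (0.265) or either IVF 2-cell library (0.213 and 0.0664), and that of Trib3 without IVF 2-cell library 1 (0.0608).

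The rest of the pathway was read from lists of genes, starting upstream with eIF2. Each count is to be set beside the shares over all genes. These were 30.2% higher and 16.5% lower for SCNT against IVF 2-cell embryos and 21.3% and 22.3% for Kdm4d against mutant embryos. For Kdm4d against mutant, 5874 genes were called, but 2229 with group weights and 2424 when only these groups were fitted. The list counts were not taken under those fits. Of 11 genes of the eIF2 complex, its exchange factor eIF2B and the phosphatase that removes the alpha phosphate, 9 were lower and 1 higher in SCNT than in IVF 2-cell embryos, with a median of -0.93 against 0.23 over all genes. Ppp1r15a, the stress-induced subunit (GADD34) of that phosphatase, stood at 18.4 ± 1.30 FPKM (SD, n = 2) in SCNT against 79.2 ± 8.998 in IVF embryos (-2.04, SE 0.34, adjusted p = 0.00056). Eif2b4, a subunit of the exchange factor, stood at 7.89 ± 0.186 against 39.6 ± 10.5 FPKM (-2.17, SE 0.22, adjusted p = 1.6e-05), and 5.37% of its stretches lie opposite to Snx17. Eif2b5 was the member that was higher (0.55, SE 0.20, adjusted p = 0.039). In Kdm4d against mutant embryos 10 of the 11 were higher and 0 lower, with Ppp1r15a at 74.2 ± 10.8 against 16.8 ± 11.4 FPKM and Eif2b4 at 38.6 ± 9.34 against 8.34 ± 0.883. Under quantile normalization and equal sums the counts were 7 lower and 1 higher in both for SCNT against IVF, and 7 and 5 higher with 0 lower for Kdm4d against mutant.

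Of 7 tested eIF2 alpha kinases and their regulators, 3 were higher and 1 lower in SCNT than in IVF 2-cell embryos. Impact, which restrains the amino acid sensing kinase Gcn2, stood at 270.6 ± 71.8 FPKM against 5.56 ± 0.287 (5.35, SE 0.33, adjusted p = 7.3e-07), and Dnajc3, an inhibitor of eIF2 alpha kinases, at 12.96 ± 2.29 against 5.07 ± 0.374. In Kdm4d embryos Impact stood at 68.5 ± 38.4 FPKM against 217.0 ± 74.4 in the mutant (-1.72, SE 0.33, adjusted p = 0.0017), and 2 of the 7 genes were lower and 2 higher (3 and 1 with equal sums). Of 6 other stress-induced transcription factors tested, 3 were higher and 0 lower in SCNT embryos. Nupr1, a small chromatin protein induced by stress, stood at 456.9 ± 62.2 against 33.7 ± 6.02 FPKM (3.73, SE 0.25, adjusted p = 9.8e-07), and Cebpg, a binding partner of Atf4, at 20.2 ± 2.23 against 13.5 ± 1.39. Both were lower in Kdm4d than in mutant embryos, Nupr1 at 78.8 ± 19.9 against 299.9 ± 93.4 FPKM, and of the 6 genes these 2 were called lower and 0 higher.

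Of 16 other Atf4 targets tested, 9 were higher and 3 lower in SCNT embryos, beside 30.2% of all genes higher and 16.5% lower, with a median of 0.80 against 0.23 over all genes. Sqstm1, an autophagy receptor, stood at 10.1 ± 2.45 FPKM against 1.71 ± 0.151 (2.02, SE 0.21, adjusted p = 2e-05), and 15.5% of its stretches lie opposite to another gene. Adm2, a secreted peptide of the adrenomedullin family, was higher by 0.64 (SE 0.18, adjusted p = 0.014), and Rwdd2a, at 6.11 ± 1.08 against 18.2 ± 1.16 FPKM, was lower. In Kdm4d against mutant embryos 2 of the 16 were higher and 9 lower (median -0.60), among them Herpud1, a gene of protein disposal at the endoplasmic reticulum, at 0.130 ± 0.184 against 6.03 ± 1.64 FPKM, and Stc2, which encodes the secreted stanniocalcin 2, at 0.720 ± 0.624 against 5.03 ± 0.497. Map1lc3b, an autophagosome protein, was higher at 207.7 ± 70.8 against 71.2 ± 18.8 FPKM. In donor cells 13 of the 16 were higher and 2 lower than in IVF 1-cell embryos, beside 42.4% and 35.5% of all genes (median 2.51 against 0.127). Against SCNT 2-cell embryos 10 were higher and 4 lower in donor cells, beside 34.1% and 38.9% (median 0.759 against -0.123). The part of the donor cell levels in these differences was not tested.

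**Figure D5:**
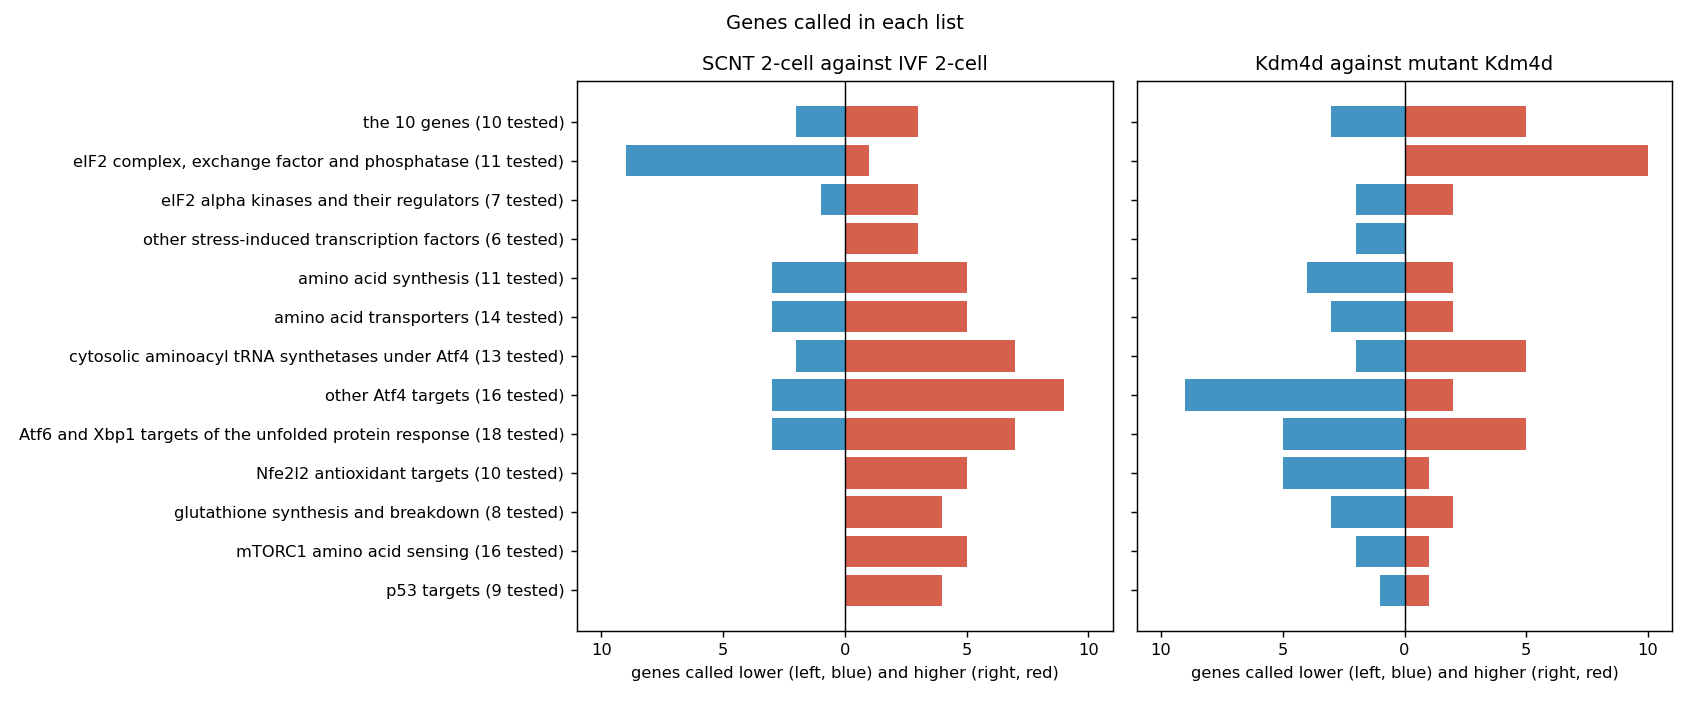
Number of genes called higher (right of 0) and lower (left of 0) in the 10 genes and in 12 lists of related genes, for SCNT against IVF 2-cell embryos (left) and Kdm4d against mutant embryos (right), with the number tested in parentheses. The eIF2 list has 9 genes lower on the left and 10 higher on the right, and the list of other Atf4 targets has 9 higher on the left and 9 lower on the right.

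Genes of amino acid supply were called in both directions. Of 11 other amino acid synthesis genes tested, 5 were higher and 3 lower in SCNT 2-cell embryos. Psph, which completes serine synthesis after Psat1, stood at 30.2 ± 2.85 FPKM against 2.11 ± 0.0595 (3.32, SE 0.18, adjusted p = 3.9e-07), and 8.82% of its stretches lie opposite to Cct6a. Shmt1, which interconverts serine and glycine in the cytosol, stood at 10.2 ± 1.53 against 60.1 ± 11.3 FPKM (-2.44, SE 0.19, adjusted p = 3.2e-06), while its mitochondrial counterpart Shmt2 was higher, at 9.61 ± 0.867 against 3.83 ± 0.0376. In Kdm4d against mutant embryos Shmt1 was higher (51.4 ± 2.51 against 8.37 ± 1.55 FPKM) and Psph lower (19.8 ± 4.53 against 38.3 ± 4.89), and of the 11 genes 2 were higher and 4 lower. After quantile normalization the counts of the 11 were 3 higher and 2 lower in SCNT and 2 and 6 in Kdm4d embryos, and with equal sums, where 12 were tested, 7 and 2 and again 2 and 6. Of 14 other amino acid transporters 5 were higher and 3 lower in SCNT embryos, near the 30.2% and 16.5% over all genes. The count moved to 3 and 3 after quantile normalization and 8 and 1 with equal sums. Slc3a2, the heavy chain that pairs with Slc7a11 at the membrane, stood at 23.4 ± 1.84 against 12.1 ± 0.624 FPKM (0.90, SE 0.20, adjusted p = 0.0031), and at 28.9 ± 8.46 in Kdm4d against 42.7 ± 7.08 in mutant embryos. Slc1a5, a glutamine transporter, was lower (-0.91, SE 0.30, adjusted p = 0.028), which did not pass with equal sums (0.143).

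Of 13 aminoacyl tRNA synthetases tested, 7 were higher and 2 lower in SCNT 2-cell embryos. Tars stood at 14.2 ± 0.753 against 2.48 ± 0.733 FPKM and Mars at 11.6 ± 3.12 against 2.76 ± 0.717. Kars was lower (-0.80, SE 0.21, adjusted p = 0.008), but not after quantile normalization (0.254) or with equal sums (0.0954). In Kdm4d against mutant embryos 5 were higher, among them Kars at 150.2 ± 1.36 against 50.0 ± 5.62 FPKM, and 2 lower. Of 18 targets of the other arms of the unfolded protein response, 7 were higher and 3 lower in SCNT embryos, with Hsp90b1, a chaperone of the endoplasmic reticulum, at 115.2 ± 2.81 against 37.3 ± 3.14 FPKM and Dnajb9, a cochaperone there, at 38.6 ± 0.450 against 112.4 ± 6.85. In Kdm4d against mutant embryos 5 were higher and 5 lower, with Dnajb9 at 137.0 ± 43.0 against 49.6 ± 9.21. The counts of this list moved with the scaling, to 6 higher and 4 lower (quantile) and 10 and 1 (equal sums) in SCNT embryos, and to 3 and 4 and to 2 and 6 in Kdm4d embryos.

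The glutathione pathway and the antioxidant targets of Nfe2l2 adjoin Slc7a11 and Chac1. Of 10 Nfe2l2 targets 5 were higher and 0 lower in SCNT 2-cell embryos, and of 8 glutathione genes tested 4 were higher and 0 lower, beside 30.2% of all genes higher and 16.5% lower. The median was 0.745 for the Nfe2l2 targets and 0.781 for the glutathione genes, against 0.225 over all genes. After quantile normalization the glutathione count was 3 higher and 1 lower. Txnrd1, thioredoxin reductase, stood at 11.5 ± 1.46 FPKM against 0.594 ± 0.184 (2.97, SE 0.22, adjusted p = 2e-06), Gclm, the modifier subunit of the enzyme that begins glutathione synthesis, at 20.7 ± 2.52 against 4.31 ± 0.761, and Gsr, glutathione reductase, at 17.9 ± 3.70 against 5.99 ± 0.265. In Kdm4d against mutant embryos 1 of the Nfe2l2 targets was higher and 5 were lower, with Txnrd1 at 2.07 ± 0.993 against 8.98 ± 0.250 FPKM. Of 9 p53 targets tested, 4 were higher and 0 lower in SCNT embryos, with a median of 0.367 against 0.225 over all genes, and with Cdkn1a, an inhibitor of the cell cycle, at 23.6 ± 2.98 against 7.96 ± 0.975 FPKM. After quantile normalization the p53 count was 2 higher and 1 lower. Of 16 genes of mTORC1 amino acid sensing, 5 were higher and 0 lower, a share of higher genes near the 30.2% over all genes and a median of 0.225 that equalled theirs. Among them was Rragd, a GTPase that tethers mTORC1, which stood at 5.26 ± 0.215 against 0.611 ± 0.0502 FPKM in SCNT against IVF and 1.10 ± 0.476 against 5.49 ± 0.466 in Kdm4d against mutant embryos. After quantile normalization the mTORC1 count was 5 higher and 1 lower.

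Markers of other cells and stages were read beside these differences. The cumulus sum was 83.8 to 92.3 FPKM in SCNT 2-cell and 126.1 to 131.3 in IVF 2-cell embryos, and 151.1 to 223.3 in Kdm4d and 91.9 to 110.4 in mutant embryos. Much of this sum was Gja1, a gap junction gene, at 34.2 to 35.9 FPKM in SCNT 2-cell, 53.9 to 63.9 in IVF 2-cell, 94.95 to 158.3 in Kdm4d and 43.2 to 46.9 in mutant embryos. Without Gja1 the other 26 markers summed to 49.6 to 56.3, 67.5 to 72.3, 56.1 to 65.0 and 48.7 to 63.5 FPKM in the same order, so that Kdm4d and mutant embryos overlapped. Single markers differed in direction. Star, which moves cholesterol for steroid synthesis, stood at 1.37 and 1.42 FPKM in SCNT 2-cell against 0.460 and 0.573 in IVF 2-cell embryos. Spp1, the most abundant marker in donor cells, stood at 36.8 and 15.7 in mutant against 10.2 and 4.35 in Kdm4d embryos. Between SCNT (13.2 and 12.7) and IVF 2-cell embryos (9.18 and 18.7) Spp1 overlapped. Cyp11a1 stood at 1.05 and 1.25 in SCNT 2-cell against 0.977 and 2.63 in IVF 2-cell embryos. In Kdm4d embryos Cyp11a1 stood at 0.599 and 0.479 against 0.659 and 0.0236 FPKM in the mutant, so both pairs overlapped. Of 25 tested markers, 2 were higher and 3 lower in SCNT than in IVF 2-cell embryos, beside 30.2% and 16.5% of all genes. In Kdm4d against mutant embryos 4 were higher and 3 lower, beside 21.3% and 22.3%. The part of these markers in the levels of Asns and Slc38a2 was not tested. Fshr, the follicle-stimulating hormone receptor that marks granulosa cells, stood at 0.0420 FPKM or less in every 2-cell library and was listed at 0 in both Kdm4d libraries. Red blood cell markers (6 genes) summed to 13.7 to 19.3 FPKM in SCNT 2-cell and 19.4 to 22.5 in mutant embryos against 2.25 to 2.90 in IVF 2-cell and 3.80 to 4.96 in Kdm4d embryos, nearly all of it Hba-a2, a globin gene that shares 89.3% of its stretches with its copy. Immune markers (10 genes) summed to 33.8 to 41.2 FPKM in SCNT 2-cell, 40.2 to 51.9 in mutant, 26.2 to 36.8 in Kdm4d and 13.96 to 14.75 in IVF 2-cell embryos, most of it Cd52. Ptprc, the pan-leukocyte antigen, was listed at 0 in both IVF 2-cell and both Kdm4d libraries and stood at 0.274 FPKM or less in every other embryo library. Lyz2, also of this list, stood at 4.50 and 4.70 FPKM in SCNT 2-cell and 3.35 and 2.25 in mutant embryos. It stood at 1.525 and 2.90 FPKM in Kdm4d and 0.525 and 0.190 in IVF 2-cell embryos, and shares 15.4% of its stretches with Lyz1. The red blood cell sum, like Asns and Slc38a2, was higher in SCNT 2-cell and mutant than in IVF 2-cell and Kdm4d embryos. In donor cells it ran from 1.38 to 34.2 FPKM. Among 2-cell groups the immune sum was lowest in IVF embryos, but its Kdm4d and SCNT ranges overlapped. Donor cells held Cd52 at a mean of 161.0 FPKM and Ptprc at 0.271. The part of either sum in the differences of Asns and Slc38a2 was not tested. Endothelial markers (6 genes) summed to 6.18 to 7.37 FPKM in SCNT 2-cell, 3.65 to 8.24 in mutant, 1.64 to 3.66 in Kdm4d and 2.06 to 2.13 in IVF 2-cell embryos. Sperm markers (6 genes) summed to 4.31 to 5.36, 5.09 to 10.97, 2.58 to 3.07 and 1.18 to 2.58 FPKM in the same order. At the 1-cell stage they summed to 8.23 to 11.2 FPKM in SCNT and 11.89 to 13.08 in IVF embryos, most of it Prm2. SCNT embryos received a cumulus cell nucleus, so this sum cannot be read as sperm RNA there.

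The 20 transcripts that mark the 2-cell stage summed to 3296 to 3494 FPKM in IVF 2-cell and 2775 to 3912 in Kdm4d embryos, against 589.3 to 620.6 in SCNT 2-cell and 326.5 to 723.2 in mutant embryos. Of the 18 tested, 15 were lower and 0 higher in SCNT than in IVF 2-cell embryos, beside 16.5% of all genes lower and 30.2% higher. This sum was high in the same groups as Atf4, Sesn2 and Trib3, and its part in their levels was not tested. Oocyte transcripts were mixed, with 4 of 19 tested higher and 4 lower in SCNT embryos (8 and 4 with equal sums). Their sum was 3318 to 3419 FPKM in SCNT 2-cell, 8399 to 8660 in IVF 2-cell, 9367 to 10930 in Kdm4d and 6414 to 10900 in mutant embryos, so that the SCNT 2-cell libraries lay below all others of the stage, with Dppa3 the most abundant gene of the list there. The part of these transcripts in the levels of the 10 genes was not tested. Epcam made up most of the oviduct epithelial sum (6 genes), which was 66.0 to 73.4 FPKM in SCNT 2-cell and 63.6 to 72.4 in IVF 2-cell embryos and so overlapped.

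Similarity of pattern was measured as Pearson's r of log2(FPKM + 1) over the 14 libraries, which fall into 7 groups, so r describes mostly the group means. Among the members, Trib3 and Psat1 had an r of 0.968, Trib3 and Sesn2 of 0.91 and Asns and Slc38a2 of 0.898. Atf4 had an r of 0.845 with Sesn2 but -0.258 with Asns and -0.217 with Slc38a2. For the 3 members with the widest difference between SCNT and IVF 2-cell embryos, the most similar genes outside the 10 were taken. For Slc38a2 these were Gfpt2, the first enzyme of hexosamine synthesis (0.979), Tet2, which oxidises methylcytosine (0.979), and Ralb, a small GTPase (0.977). For Asns they were the kinase gene Tlk1 (0.98), the interferon-inducible GTPase gene Igtp (0.976) and Atp5k, a subunit of ATP synthase (0.971). For Sesn2 they were the predicted genes Gm2016 (0.989), Gm4858 (0.985) and Gm2027 (0.984), which stood at 38.9, 10.7 and 19.4 FPKM in IVF 2-cell and 7.22, 3.05 and 4.78 in SCNT 2-cell embryos. Gm2016 shares 81.3% of its stretches with other genes, Gm4858 15.1% and Gm2027 14.6% on the same and 35.8% on the opposite strand, so their values are uncertain.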

How the data were processed

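RNA-seq was made from 14 libraries. Per the labels' protocols, cDNA was made with a SMARTer Ultra Low Input kit, sheared by Covaris sonication and prepared with NEBNext Ultra for single-end reads of 50 bases. Per the submitters' processing notes, Novoalign (version not given) and Cufflinks 2.0.2 were used on mm9. The authors deposited FPKM for 23697 rows. The sources used here give no annotation, strand setting or treatment of reads with several positions.

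Short RNA rows (806) were left out and 630 rows sharing a symbol were summed (22491 symbols remained). All 10 members were among the 13452 genes that reached 1 FPKM in 2 or more libraries and were fitted as log2(FPKM + 1) with limma 3.58.1 in R 4.3.3 (7 group means, 7 residual degrees of freedom, intensity trend, robust), with no further scaling, and p-values were Benjamini-Hochberg adjusted for every comparison on its own (threshold 0.05). The script was tested on simulated data. Relative depth came from the step between low FPKM values, and fragments from the smallest whole numbers that fit all 14 values of a gene (within the larger of 0.02 and 1e-05 of the count; the largest deviation was 0.052, for Slc38a2). True counts could be multiples of these. No such set was found for Atf4, Ddit3, Slc7a11 and Psat1, for which the fragments behind a value are unknown.

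The members, lists, tests and alternatives were chosen with earlier results of these data known. From each list outside the markers of cells and stages, the text names a selection of up to 2 genes called higher and 2 called lower. These had the largest differences among genes whose libraries did not overlap and whose mean reached 5 FPKM in either group. Markers such as Cyp11a1, Star, Fshr and Ptprc were chosen separately and need not meet this rule. For similarity, the 3 genes with the highest r and at least 5 FPKM in a group were taken for 3 members. Alternatives were pseudocounts of 0.1 and 0.5, no filter, a filter of 5 FPKM, quantile normalization, equal sums, group weights, a replicate term, fits to the compared groups only, and each library left out.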

Additional observations from a re-analysis of the deposited data

Results flagged for a closer look

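Under the same contrast, 2-cell against 1-cell embryos, 6 of the 10 genes changed by different amounts in SCNT and in IVF embryos by limma's interaction term, beside 16.4% of all genes called higher and 12.5% lower. The SCNT change minus the IVF change was 2.79 for Slc38a2, 1.98 for Asns, 0.98 for Chac1 and 0.90 for Slc7a11 on the log2(FPKM + 1) scale, and -2.43 for Psat1 and -1.91 for Sesn2. With a pseudocount of 0.1 Asns (adjusted p = 0.0955) and Slc7a11 (0.0532) did not pass. After quantile normalization Chac1 (0.0863) and Slc7a11 (0.295) did not. These 3 genes also lost their calls in fits without single libraries, as given above. Psat1 was already higher in SCNT than in IVF embryos at the 1-cell stage, at 3.30 ± 0.0120 against 0.232 ± 0.156 FPKM (SD, n = 2). That call was lost whichever library of these groups was left out. No group had enough libraries for a check for outliers.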

How the results depend on the processing

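Among 949 values of called genes under the alternatives, 0 changed direction, 827 kept their call and 122 lost it. Counts of called genes moved by over 1.5 times in 5 of the 12 comparisons. The difference between stage changes gave 6 calls and 3 to 5 with single libraries left out. SCNT against IVF 1-cell embryos gave 2 calls, 6 with group weights, 4 when only these groups were fitted and 0 to 1 with single libraries left out. Kdm4d against SCNT 2-cell embryos gave 6 and 3 to 5 with single libraries left out. Mutant against SCNT 2-cell embryos gave 3, 0 with group weights, 0 when only these groups were fitted, and 0 to 5 with single libraries left out. Kdm4d against mutant embryos gave 8, and 4 with group weights. The cause was not tested, beyond the smaller number of libraries in fits that leave some out, where a lone library is assumed to vary like the other groups. Over all genes, mutant against SCNT 2-cell embryos gave 2333 calls, 590 with group weights and 30 when only these groups were fitted. In the same order, SCNT against IVF 1-cell embryos gave 286, 4073 and 3352, and Kdm4d against mutant embryos gave 5874, 2229 and 2424. With a replicate block, Slc7a11 lost its call in mutant against SCNT 2-cell embryos (adjusted p = 0.0594, leaving 2 of 3 calls), and no other call changed. The labels do not say whether libraries numbered alike share more than the number. Over 21 pairs of groups their deviations correlated from -0.154 to 0.191, above 0.1 in 1 pair, Kdm4d and mutant embryos. With 2 libraries a group, such correlations cannot show whether a session or batch was shared. Levels of 22 fragments or fewer, as for Sesn2, Trib3 and Slc38a2 in both IVF 1-cell libraries (12 and 14, 8 and 2, and 8 and 17 fragments), Chac1 in both IVF 2-cell libraries, Trib3 and Chac1 in donor cells and Asns in IVF 1-cell library 1 and Kdm4d library 1, limit what can be resolved there.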
